A study of Mus musculus with 4 samples.

Results

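The cells described here were sorted as long-term haematopoietic stem cells (LT-HSC) of mouse bone marrow and nevertheless carried RNA of Flt3, the gene for a cytokine receptor. They were selected on a measured value: every LT-HSC barcode with at least 1000 genes, at least 2000 unique molecular identifiers (UMIs, each standing for 1 captured RNA molecule) and at most 10% mitochondrial UMIs was kept as a cell, and those with 1 or more Flt3 UMIs were taken. This gave 167 of 1239 kept LT-HSC cells, 166 of 1217 in mouse 2 and 1 of 22 in mouse 1. The question was whether these cells differ from the other LT-HSC of the same library in further genes, and whether they differ in the direction of short-term HSC (ST-HSC).

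The series held 4 single-cell libraries (10x Chromium 3' v3), an LT-HSC and an ST-HSC library from each of 2 male mice aged 14 weeks. All 4 came from mice of the strain given as Tie2-bG-Micm x RosaYFP, so every group carried both alleles, and the labels name neither a treatment nor a wild-type group. Tie2, after which the first allele is named, is active in endothelial cells as well as in stem cells. Both gates took lineage-negative cells with Kit and Sca-1 on the surface and without CD48, and parted on CD150, which LT-HSC carry and ST-HSC lack.

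Flt3 is a receptor tyrosine kinase that binds FLT3 ligand. In the classical scheme of mouse blood formation its surface protein is absent from the stem cells that rebuild blood for life and appears as cells turn into multipotent progenitors with lymphoid potential. Slamf1 encodes CD150, Ly6a encodes Sca-1 and Kit encodes the receptor for stem cell factor, so the transcripts of 3 gate proteins besides Cd48 could be read in the same cells.

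The LT-HSC library of mouse 1 stood apart, with 39553 barcodes at a median of 285 UMIs and only 22 kept cells. The comparison of cells with and without Flt3 therefore rests on the LT-HSC library of mouse 2, a single sample. Cells are not replicates of a condition, so values from that library carry exact 95% counting intervals and no test, and they do not cover the spread between mice. Members of mouse 2 had a median of 10720.5 UMIs, and each was set against the 2 nearest cells without Flt3 in total UMIs, which gave 332 reference cells with a median of 10711.5 UMIs. The summed UMIs were 1942039 and 3877317. No barcode of a member was shared with a kept cell of another library, and 2 members had a barcode that also stood among the 39553 of LT-HSC of mouse 1.

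A single member was unlike the other 165. It held 25186 UMIs, among them 1 Flt3 UMI, 576 of Lyz2 (lysozyme), 42 of Ly6c2, 18 of Ccr2 and 4 of Csf1r, genes of the monocyte lineage, and no UMI of Kit, Hlf, Mecom, Cd34, Slamf1 or Apoe. No reference cell held more than 10 Lyz2 UMIs, and none held any of Ly6c2, Ccr2 or Csf1r. The rule keeps this Lyz2-rich cell among the members. Values it moved are given with and without it.

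Flt3 lies on chromosome 5 at 147330741 to 147400489, on the minus strand (GRCm38, GENCODE vM21). The 166 members of mouse 2 held 193 Flt3 UMIs. Of these cells, 143 held 1 UMI, 20 held 2, 2 held 3 and 1 held 4. Most members thus lie at the threshold of the rule, 1 molecule away from the cells outside it. Summed over the kept cells, Flt3 stood at 14.6 counts per 1000000 UMIs (CPM; interval 12.6 to 16.8) in LT-HSC of mouse 2. Both ST-HSC libraries lay higher, at 155 CPM in mouse 2 and 135 CPM in mouse 1. The share of cells with a Flt3 UMI was 13.6% (11.8 to 15.7) among these LT-HSC, and the ST-HSC had 62.1% in mouse 2 and 65.4% in mouse 1. The libraries differed in depth, with medians of 10367 UMIs in the LT-HSC, 7504 in the ST-HSC of the same mouse and 9881 in those of mouse 1.

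Detection of Flt3 moved with depth. With the LT-HSC of mouse 2 divided by depth into 4 bins of equal size, the share with a Flt3 UMI was 10.8% in the shallowest bin, 11.5% and 15.5% in the middle bins and 16.8% in the deepest, with intervals that overlap. The ST-HSC of that mouse ran from 52.0% in the shallowest bin to 66.7% in the deepest. Even the deepest LT-HSC bin, at a median of 15064 UMIs, lay below the shallowest ST-HSC bin, at 5592. Cells in which markers of neutrophils, mast cells and basophils, macrophages, red cells, B cells or T and NK cells took 2% or more of UMIs should lack Flt3. The ST-HSC libraries held 11 such cells in mouse 2 (median 7290 UMIs) and 5 in mouse 1 (median 9217), and the LT-HSC library of mouse 2 held 1 (4390 UMIs), and none of them had a Flt3 UMI. Over 11 cells, a count of 0 allows a share of up to 27.3%, so a low level from free RNA was not detectable at this number of cells, and its part in the members was not tested.

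**Figure D1:**
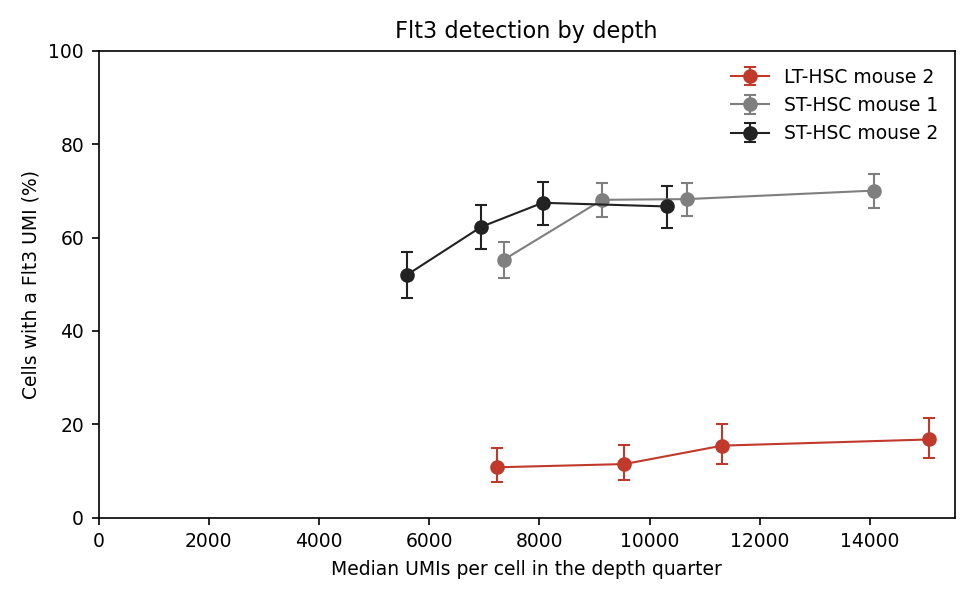
Share of kept cells with at least 1 Flt3 UMI (vertical axis, percent) against the median UMIs of each of 4 depth bins (horizontal axis), for LT-HSC of mouse 2 and both ST-HSC libraries. Bars are exact 95% binomial intervals, which cover counting error only. The LT-HSC points lie between 10.8% and 16.8% and all ST-HSC points above 50%.

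In the transcript of CD150, on which the gates part, the members lay close to the other LT-HSC. Slamf1 stood at 17.0 CPM in members and 23.0 CPM in the reference, a ratio of 0.74 (interval 0.48 to 1.12), while the ST-HSC stood at 1.40 CPM in mouse 2 and 0.825 CPM in mouse 1. A Slamf1 UMI was present in 27 of 166 members (16.3%) and in 70 of 332 reference cells (21.1%, 16.8 to 25.9), but in 1.11% of ST-HSC of mouse 2. Members and reference overlap in Slamf1, and both lie far above ST-HSC. With every cell thinned to 5000 UMIs, which left out 3 members, 6 reference cells and 117 ST-HSC, the shares were 8.59%, 10.7% and 0.692%. The receptor gene Kit had a ratio of 1.08 (0.97 to 1.21), at 249 and 231 CPM, and Ly6a one of 1.12 (1.00 to 1.26), at 246 and 219 CPM. Cd48, whose protein both gates exclude, stood at 13 UMIs in members and 4 in the reference, and 10 of the 13 were in the Lyz2-rich cell. Without that cell its ratio fell from 6.49 to 1.52, from 3 UMIs against 4.

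Gate genes other than Flt3 were then chosen in mouse 1, where no cell of mouse 2 could choose them: genes at least 2-fold higher in 1 gate and at 20 CPM or more there. These were 255 genes higher in ST-HSC and 66 higher in LT-HSC, read in mouse 2. In the members, the genes higher in ST-HSC were shifted up and the genes higher in LT-HSC were shifted down, both by less than the difference between the gates. The genes higher in ST-HSC took 1.21% of UMIs in members, 1.05% in the reference and 1.68% in ST-HSC of mouse 2, a ratio of members to reference of 1.16 (1.14 to 1.18). The genes higher in LT-HSC took 0.357%, 0.444% and 0.227%, a ratio of 0.80 (0.78 to 0.83). Without the Lyz2-rich cell these ratios were 1.15 and 0.81.

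Gene by gene, 6218 genes had 20 CPM or more in the mean of members and reference. Of these, 58 were at least 1.5-fold higher in members (0.933%) and 57 at least 1.5-fold lower (0.917%), and the median log2 ratio was 0.02. Above a ratio of 1 lay 3350 of the 6218 and below it 2868, the baseline for all later counts of genes above or below 1. Of the 175 measured genes higher in ST-HSC, 15 were at least 1.5-fold higher in members (8.57%) and 1 lower (0.571%). Their median log2 ratio was 0.18, against 0.34 for ST-HSC of mouse 2 over the same reference, and 136 of them lay above a ratio of 1. Of the 51 measured genes higher in LT-HSC, none was 1.5-fold higher and 8 were 1.5-fold lower (15.7%). Their median was -0.30, against -1.35 for ST-HSC of mouse 2, and 47 of them lay below a ratio of 1. Without the Lyz2-rich cell, 12 and 1 of the ST-HSC genes and 1 and 7 of the LT-HSC genes were past 1.5-fold up and down, the higher LT-HSC gene being the globin gene Hbb-bt. Among those 12 was Cd52, whose mean fell below 20 CPM without that cell. The level of 20 CPM was read in the compared cells themselves, and 8 of the 15 higher ST-HSC genes lay below it in the reference, so they counted as measured only through the members. With the level read in the kept LT-HSC of mouse 2 that are neither member nor reference, an alternative added after the values were seen, 6235 genes were measured, 0.834% of them 1.5-fold higher and 1.15% lower. Of 166 ST-HSC genes 11 were then higher (6.63%) and none lower, and of 56 LT-HSC genes none was higher and 11 were lower (19.6%), with medians of 0.16 and -0.30.

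**Figure D2:**
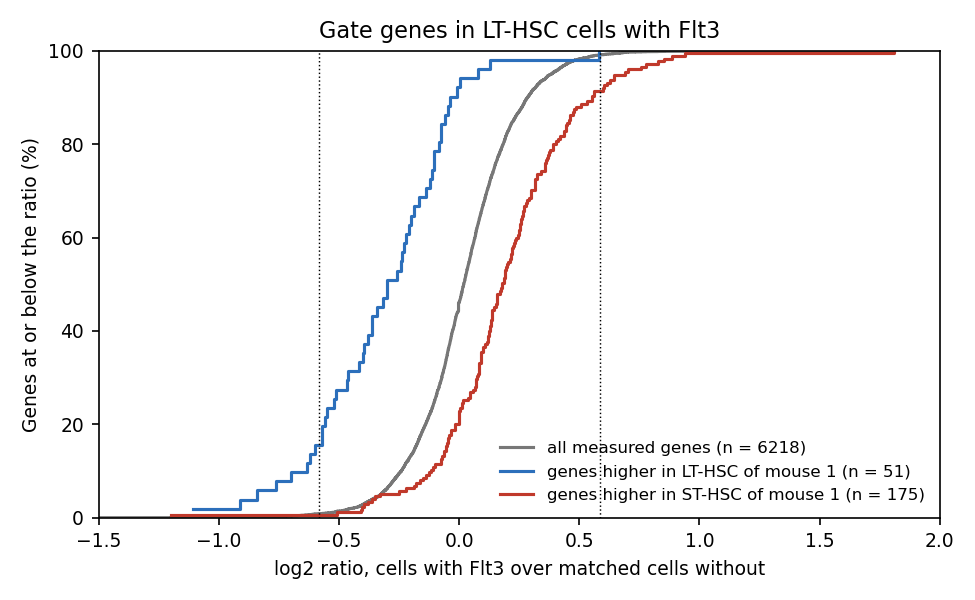
Cumulative share of genes (vertical axis, percent) at or below each log2 ratio of members to matched reference cells in LT-HSC of mouse 2 (horizontal axis), for all 6218 measured genes, 175 genes higher in ST-HSC and 51 genes higher in LT-HSC, both chosen in mouse 1. Dotted lines mark 1.5-fold. The medians lie at 0.02, 0.18 and -0.30.

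The mouse 1 choice rests on the near-empty LT-HSC library. After the values had been seen, the sets were narrowed to genes at least 2-fold apart between the gates in mouse 2 as well, which left 57 and 40 genes. The LT-HSC side of that choice was the kept cells of mouse 2 that are neither member nor reference. The sets were chosen with results known, so these values are a description. The 57 ST-HSC genes took 0.212% of UMIs in members, 0.153% in the reference and 0.518% in ST-HSC of mouse 2. The 40 LT-HSC genes took 0.223%, 0.302% and 0.090%. The median log2 ratios were 0.56 over 18 measured genes and -0.40 over 35, where ST-HSC of mouse 2 stood at 1.498 and -1.53. Among the 18, Tm6sf1, Kcnk12, Anxa2, Pglyrp1, Trf and Cd52 lay below 20 CPM in the reference. They counted as measured only through the members, which raises that median.

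Among the ST-HSC genes, Cd34, a surface sialomucin whose protein is absent from most adult mouse long-term stem cells, stood at 110 CPM in the reference and 186 CPM in members, while the ST-HSC stood at 376 CPM in mouse 2 and 401 CPM in mouse 1. The ratio of members to reference was 1.69 (1.46 to 1.95). A Cd34 UMI was present in 130 of 166 members (78.3%), 186 of 332 reference cells (56.0%) and 87.1% of ST-HSC of mouse 2. The members thus lay between the reference and ST-HSC both in level and in share of cells. Serpinb1a, an inhibitor of neutrophil serine proteases, stood at 56.2, 99.9 and 199 CPM in reference, members and ST-HSC of mouse 2 (ratio 1.78, 1.46 to 2.17). Plac8, a gene of early progenitors and myeloid cells, had 92.6, 145 and 420 CPM (ratio 1.56, 1.33 to 1.83), and the ratio was 1.43 without the Lyz2-rich cell.

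Cd52, which encodes a small surface glycoprotein of leukocytes, had the largest ratio of these genes, 3.54 (2.50 to 5.06), but the Lyz2-rich cell held 48 of its 94 UMIs. Without that cell Cd52 stood at 24.0 CPM against 13.7 CPM in the reference and 162 CPM in ST-HSC of mouse 2, a ratio of 1.76 (1.16 to 2.66). A Cd52 UMI was present in 31 of 166 members (18.7%), 31 of 332 reference cells (9.34%) and 51.7% of ST-HSC of mouse 2. Anxa2, for the membrane-binding annexin A2, went from a ratio of 1.72 to 1.07 without that cell. The others past 1.5-fold were Trf, Lyst, Mdga1, Plppr3, Arhgap32, Arid5b, Pglyrp1, Slco3a1, Parp8 and Dock8, with ratios from 1.52 to 1.93 and 52 to 83 UMIs in members. Like Cd52 and Anxa2, the genes Trf, Lyst, Mdga1, Arhgap32, Pglyrp1 and Parp8 lay below 20 CPM in the reference. They counted as measured only through the members. Arid5b and Lyst were not called in the comparison of the gates over the 4 libraries, given below. In the opposite direction, Cenpf, for a centromere protein of dividing cells, stood at 16.0 CPM against 36.9 CPM (ratio 0.43, 0.28 to 0.64). The ST-HSC stood at 15.4 CPM in mouse 2 and 28.2 CPM in mouse 1, so Cenpf was not higher in ST-HSC than in the reference. These genes are named because they passed 1.5-fold.

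Among the LT-HSC genes, Apoe, for the lipid carrier apolipoprotein E, stood at 668 CPM in the reference and 466 CPM in members, while the ST-HSC stood at 99.95 CPM in mouse 2 and 126 CPM in mouse 1. The ratio of members to reference was 0.70 (0.65 to 0.75). An Apoe UMI was present in 92.8% of members, 94.9% of reference cells and 39.8% of ST-HSC of mouse 2, so the members kept nearly the LT-HSC share at a lower level. Mllt3, a chromatin reader linked to HSC maintenance, was at 245, 165 and 90.5 CPM in reference, members and ST-HSC of mouse 2 (ratio 0.67, 0.59 to 0.77). Cdkn1c, which encodes the cell cycle inhibitor p57, was at 74.0, 41.2 and 25.5 CPM (ratio 0.56, 0.43 to 0.72). Bex4 was at 87.2, 59.2 and 20.05 CPM (ratio 0.68, 0.54 to 0.84).

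The lowest ratio of these genes was that of Sult1a1, for a sulfotransferase, at 25.7 CPM in members and 55.7 CPM in the reference (0.46, 0.33 to 0.63). Nupr1, a stress-induced chromatin protein, followed with 31.4 and 59.3 CPM (0.53, 0.39 to 0.70). Both lie far lower in ST-HSC of mouse 2, at 3.54 and 5.23 CPM. Aldh1a1, a retinaldehyde dehydrogenase, stood at 23.7 and 36.9 CPM (0.64, 0.45 to 0.90), against 3.096 CPM in ST-HSC of mouse 2. The remaining genes at least 1.5-fold lower were Slfn2, Gp9, Ecscr and Serpinb6a, with ratios from 0.59 to 0.66. Vwf, for von Willebrand factor, is a marker of platelet-biased stem cells. Its mean was below 20 CPM and it was looked at after its values were seen. It held 19 UMIs in members and 90 in the reference, 9.78 and 23.2 CPM (ratio 0.42, 0.24 to 0.70), and 3.54 CPM in ST-HSC of mouse 2.

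**Figure D3:**
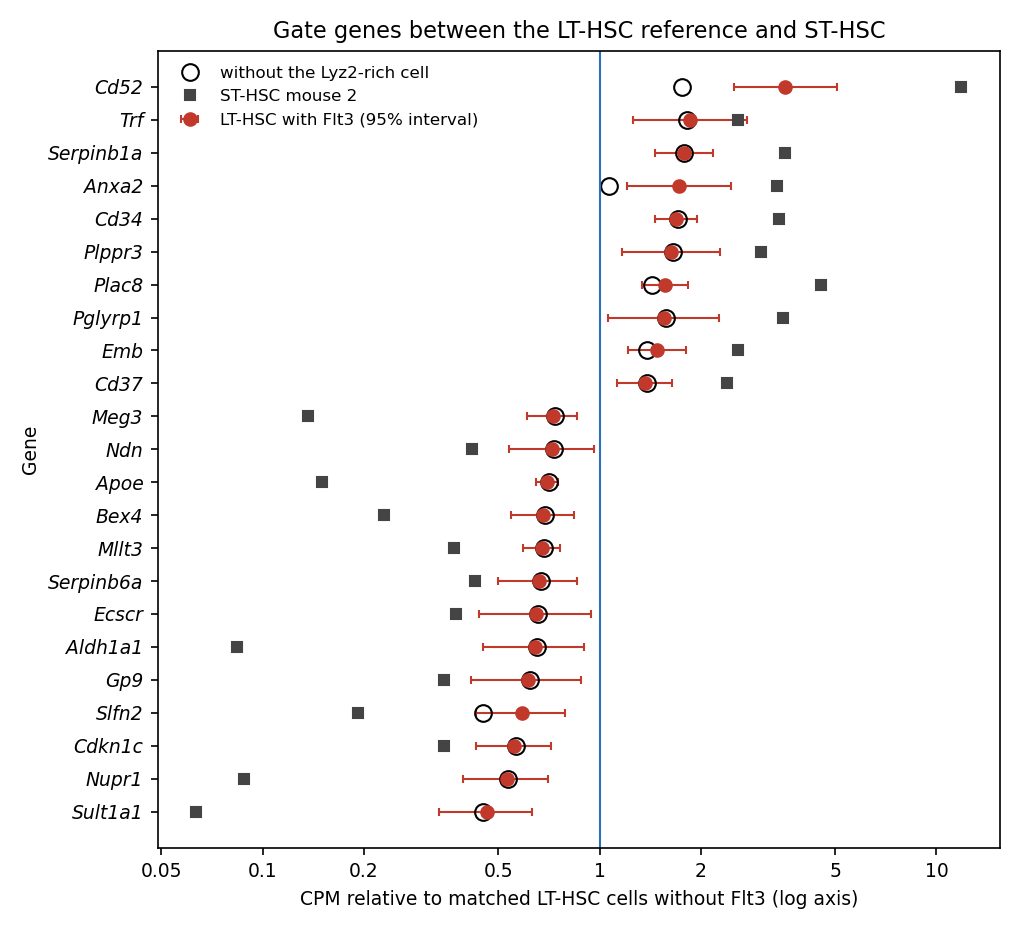
CPM relative to the matched reference cells (log axis, reference at 1) for genes at least 2-fold apart between the gates in both mice that passed 1.5-fold in the members, with Emb, Cd37 and 5 LT-HSC genes beside them. Filled circles are the 166 members with 95% counting intervals, open circles the 165 members without the Lyz2-rich cell, and squares ST-HSC of mouse 2, whose values lie beyond the members' for every gene shown. Cd52 drops from 3.54 to 1.76 and Anxa2 from 1.72 to 1.07 without that cell.

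The shift was spread over the members. Each cell was scored by the percent of its UMIs in the gate genes of mouse 1. The score for ST-HSC genes had a lowest value of 0.699%, a median of 1.18% and a highest of 2.14% in members, against 0.566%, 1.03% and 2.24% in the reference, so the ranges overlap almost fully. Above the reference median lay 134 of 166 members (80.7%). Above the median ST-HSC cell of mouse 2, at 1.65%, lay 11 members (6.63%, 3.35 to 11.5) and 7 of 332 reference cells (2.11%, 0.852 to 4.30). The score for LT-HSC genes ran from 0.107% over a median of 0.349% to 0.805% in members, against 0.113%, 0.428% and 1.29% in the reference. Below the median ST-HSC cell, at 0.194%, lay 7 members (4.22%) and 11 reference cells (3.31%), with overlapping intervals. Past the ST-HSC median in both scores were 2 members, 1 of them the Lyz2-rich cell, and no reference cell, where 0 of 332 allows a share of up to 0.904%.

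**Figure D4:**
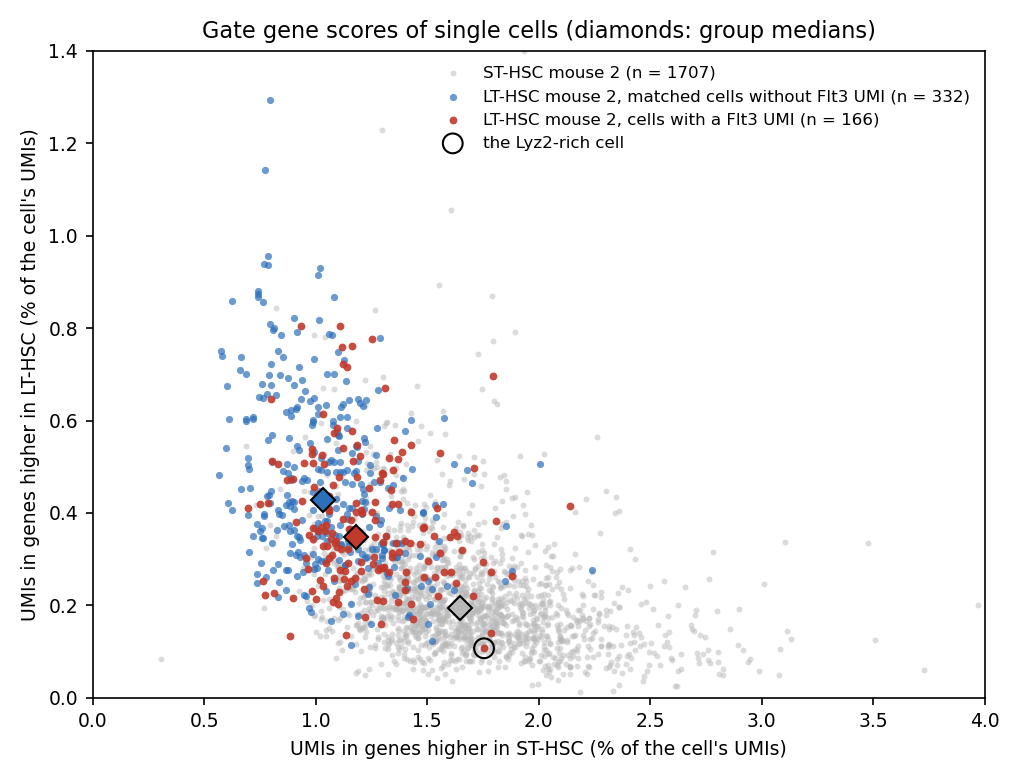
Percent of each cell's UMIs in genes higher in ST-HSC (horizontal axis) and in genes higher in LT-HSC (vertical axis), both chosen in mouse 1, for 166 members, 332 reference cells and 1707 ST-HSC of mouse 2. Diamonds are group medians, at 1.18% and 0.349% in members, 1.03% and 0.428% in the reference, and 1.65% and 0.194% in ST-HSC, and 4 ST-HSC lie outside the axes. The members overlap the reference cells, and the circled Lyz2-rich cell lies among the ST-HSC.

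The members were also split by their number of Flt3 UMIs and by whether they held a Slamf1 UMI. In the 23 members with 2 or more Flt3 UMIs (median 10178 UMIs) the median ST-HSC score was 1.33%, and 22 of them lay above the reference median. In the 143 members with 1 UMI (median 10730) the median was 1.16%, and 112 lay above it. The median LT-HSC scores were 0.368% and 0.346%, in the opposite order. The 23 cells held 243199 UMIs in all, so single genes are poorly measured there: Apoe stood at 308 CPM in them and 489 CPM in members with 1 UMI, and Cd34 at 173 and 188 CPM. In the 27 members with a Slamf1 UMI the median scores were 1.14% and 0.357%, and in the 139 without one 1.20% and 0.349%. In the reference, cells with a Slamf1 UMI had 0.933% and 0.541% and cells without one 1.05% and 0.411%. Members with Slamf1 RNA thus scored above the reference in ST-HSC genes and below it in LT-HSC genes, as did members without.

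Genes that accompany Flt3 were taken from the ST-HSC libraries, which share no cell with the members. Each ST-HSC library was split into cells with a Flt3 UMI and depth-matched cells without one (911 of each in mouse 1, 647 of each in mouse 2), and the sums were fitted with edgeR's quasi-likelihood test with the library as a block. Of 11931 genes tested, 204 were higher with Flt3 (1.71%) and 339 lower (2.84%) at an adjusted p of 0.05. These p-values compare cells within 2 libraries and rest on 2 mice. DESeq2 called 50 genes on the same sums, and 19 were called without the block. Genes lower with Flt3 were led by Lcn2, Elane, S100a8, Ngp, Prss34, S100a9, Retnlg and Ctsg, of neutrophils and basophils. In the members they were nearly absent: S100a8 held 8 UMIs in members and 6 in the reference, and the other 7 held at most 3 UMIs in members. The kept LT-HSC of mouse 2 that are neither member nor reference held more, with S100a8 at 130 CPM and S100a9 at 112 CPM. They include the 1 LT-HSC cell of mouse 2 in which neutrophil markers took 2% or more of UMIs (4390 UMIs). Its part in these values was not tested. Of the 339 genes lower with Flt3, 198 were measured in LT-HSC of mouse 2. Their median log2 ratio was -0.03, against -0.24 for ST-HSC of mouse 2 over the same reference. In members 5 of them were at least 1.5-fold higher (2.53%) and 9 lower (4.55%), with 83 above a ratio of 1 and 115 below. Without the Lyz2-rich cell 2 were higher (1.01%) and 10 lower (5.05%), with a median of -0.05. The summed ratio was then 0.972 (0.966 to 0.978). Over all measured genes 0.933% were higher and 0.917% lower, with a median of 0.02. The median of the set thus lay near that of all genes, while a larger share of the set was lower.

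Of the 204 genes higher with Flt3 in ST-HSC, 120 were measured in LT-HSC of mouse 2 and 12 had no UMI in the members. In the 120, 5 were at least 1.5-fold higher in members (4.17%) and 1 lower (0.833%), with a median log2 ratio of 0.16. Above a ratio of 1 lay 94, against 3350 of all 6218 measured genes. The 5 were Serpinb1a, Cd34, Il12a, Plppr3 and Slco3a1. Il12a, for a subunit of interleukin 12 and interleukin 35, had 89 UMIs in members and 105 in the reference (ratio 1.69, 1.26 to 2.27). The lower gene was Ifi44, an interferon-induced gene, with 43 UMIs in members and 149 in the reference (ratio 0.58, 0.40 to 0.81).

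The genes with the largest differences between ST-HSC with and without Flt3 held few UMIs in the members. Wfdc17, for a secreted whey acidic protein domain factor, had a log2 difference of 1.61 (SE 0.05, adjusted p = 1.3e-202, edgeR) in ST-HSC and stood at 200 CPM in ST-HSC of mouse 2. It held 21 UMIs in members and 12 in the reference, 10.8 and 3.09 CPM, a ratio of 3.49 (1.64 to 7.79). Tespa1, a factor of T cell receptor signalling, held 11 UMIs in members and 5 in the reference (ratio 4.39, 1.41 to 16.1), against 37.6 CPM in ST-HSC of mouse 2. Satb1, a chromatin organizer of lymphoid cells, held 18 and 19 UMIs (ratio 1.89, 0.94 to 3.81). Slc16a11, Ddx4, Itgb5 and Wfdc18 held 1 to 4 UMIs in members and 0 to 9 in the reference. All 6 UMIs of Ighm, the immunoglobulin heavy chain mu gene, were in the Lyz2-rich cell. The members therefore stood above the reference in Wfdc17 and Tespa1, at levels far below those of ST-HSC.

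The gene lists for known programmes of stem and progenitor cells are described by their summed UMIs. Of 9 measured genes of multipotent progenitors, 3 were at least 1.5-fold higher and none lower, namely Cd34, Cd52 and Plac8, and the list's ratio was 1.40 (1.32 to 1.48). Without the Lyz2-rich cell Cd34 and Cd52 stayed past 1.5-fold and the ratio was 1.35. The mean of Cd52 was then below 20 CPM, and 8 genes of the list were measured. Cd27, a receptor of the TNF family, and Cd37, a tetraspanin of leukocytes, had ratios of 1.18 and 1.36.

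Of 8 measured lymphoid priming genes, 1 was at least 1.5-fold higher, Il12a, and the list's ratio was 1.11 (1.06 to 1.17). Sox4, a transcription factor of early lymphoid and progenitor cells, stood at 383 CPM in members and 289 CPM in the reference (ratio 1.32, 1.20 to 1.45), against 518 CPM in ST-HSC of mouse 2. Ikzf1, for the lymphoid factor Ikaros, had a ratio of 1.30 (1.05 to 1.61) and Mef2c one of 1.01 (0.91 to 1.12). Dntt, for the terminal transferase of lymphoid precursors, and Il7r, for the interleukin 7 receptor, had no UMI in members or reference. Of the 8 measured genes 6 lay above a ratio of 1 and 2 below it, and 7 of the 20 listed genes had no UMI in members.

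The myeloid priming genes had a ratio of 1.31 (1.26 to 1.38), and 1.03 (0.98 to 1.08) without the Lyz2-rich cell. Lyz2 itself stood at 607 CPM against 300 CPM, and at 314 CPM without that cell. Spi1, for the transcription factor PU.1, had a ratio of 1.31 (1.10 to 1.56), or 1.23 without it. Markers of other cell types were sparse in the members. The 10 neutrophil markers took 0.039% of UMIs in members and 0.035% in the reference, nearly all of them Prtn3 (734 and 1348 UMIs). The mast cell and basophil markers held 11 UMIs in each group, a ratio of 2.00 (0.78 to 5.08). The macrophage markers held 24 and 19 UMIs, a ratio of 2.52 (1.32 to 4.87), and 2.13 (1.08 to 4.22) without the Lyz2-rich cell. Their part in the other results was not tested. Cd79a, Ms4a1, Cd3e, Siglech, Itgax and Cdh5 had no UMI in either group.

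The HSC-enriched genes had a ratio of 0.92 (0.90 to 0.94). Of 19 measured, 2 were at least 1.5-fold lower, Sult1a1 and Mycn, and 1 higher, Cd34. Mycn, a Myc family transcription factor, stood at 102 CPM in members and 180 CPM in the reference (0.57, 0.48 to 0.67). Hlf, a transcription factor that marks stem cells, was at 487 and 445 CPM (1.09, 1.01 to 1.18), Mecom at 107 and 126 CPM (0.85, 0.71 to 1.00) and Procr, for the protein C receptor, at 96.3 and 109 CPM (0.88, 0.74 to 1.05). The 18 stem cell transcription factors as a list had a ratio of 1.02 (0.99 to 1.05), with none past 1.5-fold. In ST-HSC of mouse 2 Hlf stood at 663 CPM, Mecom at 93.1 CPM and Procr at 108 CPM. The members thus lay between reference and ST-HSC in Hlf and Mecom, while Procr hardly differed between reference and ST-HSC.

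Imprinted genes, several of which restrain growth in stem cells, had a ratio of 0.69 (0.61 to 0.76), and all 4 measured members lay below 1. Besides Cdkn1c these were Meg3, a long noncoding RNA, at 97.3 and 134 CPM (0.73, 0.61 to 0.86), Grb10 (0.76, 0.57 to 1.00) and Ndn (0.72, 0.54 to 0.96). Meg3 was carried by similar shares of cells, 24.7% of members and 28.3% of reference cells. In the 23 members with 2 or more Flt3 UMIs against their own matched cells, the imprinted list's ratio was 0.89 (0.67 to 1.17). Megakaryocyte and platelet genes had a ratio of 0.86 (0.81 to 0.92), with Gp9 past 1.5-fold. Pf4, for platelet factor 4, stood at 92.2 and 123 CPM (0.75, 0.63 to 0.89). In the kept LT-HSC of mouse 2 that are neither member nor reference, Pf4 stood at 76.3 CPM, below the members. A Pf4 UMI was present in 42.8% of members and 41.0% of reference cells. The lower Pf4 level was thus seen neither against those other LT-HSC nor in the share of cells. With cells thinned to equal depth the list's ratio was 0.94 (0.86 to 1.03), and against all other kept cells 0.89 (0.84 to 0.94).

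The cell cycle lists divided. S phase genes had a ratio of 1.12 (1.08 to 1.17), and 21 of 23 measured genes lay above 1, with none past 1.5-fold. They took 0.180% of UMIs in members, 0.160% in the reference and 0.121% in ST-HSC of mouse 2, so the members lay away from ST-HSC. Mcm6 and Mcm7, of the replicative helicase, had ratios of 1.18 and 1.22. G2 and M phase genes took 0.121%, 0.146% and 0.103% in members, reference and ST-HSC of mouse 2. Their ratio of members to reference was 0.83 (0.79 to 0.87), and 6 of 13 were at least 1.5-fold lower, among them Ube2c (0.24, 0.13 to 0.41) and Cenpf. The second direction moved with the deepest cells. It was 1.04 (0.99 to 1.08) against all other kept cells without depth matching, 1.01 (0.95 to 1.07) with the deepest 5% of cells left out and 0.50 (0.43 to 0.58) for the 23 members with 2 or more Flt3 UMIs. The S phase ratio was 1.04 (0.99 to 1.09) with 1 matched cell per member and 1.31 (1.24 to 1.38) with the deepest 5% left out. Cells with 0.5% or more of their UMIs in the G2 and M list numbered 4 of 166 members (2.41%, 0.66 to 6.05) and 13 of 332 reference cells (3.92%, 2.10 to 6.60). For the S phase list they numbered 14 (8.43%, 4.69 to 13.8) and 17 (5.12%, 3.01 to 8.07). All these intervals overlap. The median cell had 0.053% of its UMIs in the G2 and M list among members and 0.047% in the reference. The lower summed ratio of that list was thus not seen in the median cell. For the S phase list the medians were 0.073% and 0.065%.

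Interferon response genes had a ratio of 0.87 (0.83 to 0.92), and Iigp1 (0.57, 0.46 to 0.71) was among its genes past 1.5-fold. With 1 matched cell per member the list's ratio was 0.946 (0.891 to 1.005), an interval that includes 1. In the 23 members with 2 or more Flt3 UMIs the ratio was 0.99 (0.86 to 1.13), and the log2 ratio of Iigp1 went from -0.80 to 0.071. These 23 cells were set against their own depth-matched cells there, and against all 332 reference cells their log2 ratio for Iigp1 was -0.34. The lists of cytokine receptors, quiescence genes, MHC class II genes, Hox genes, translation and Myc target genes and immediate early genes had ratios between 0.95 and 1.03. The last held Ier3, an early response gene linked to survival, at 80.3 and 44.4 CPM (1.81, 1.45 to 2.26). Mitochondrially encoded genes took 3.11% and 3.07% of UMIs.

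**Figure D5:**
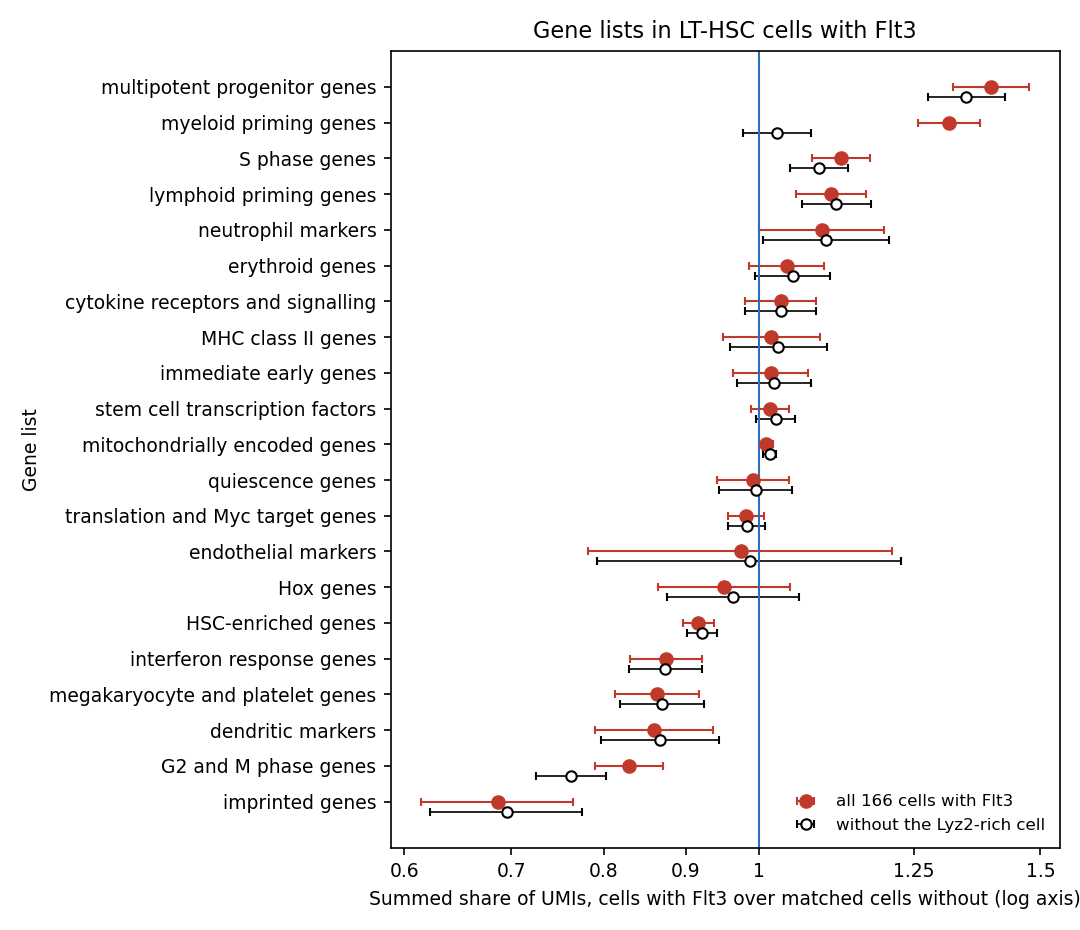
Ratio of the summed share of UMIs in members to that in matched reference cells (log axis) for gene lists with 100 or more UMIs in members, with 95% counting intervals. Filled circles use all 166 members and open circles leave out the Lyz2-rich cell, which moves the myeloid priming list from 1.31 to 1.03 and the G2 and M list from 0.83 to 0.76. Multipotent progenitor genes lie highest and imprinted genes lowest.

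The next genes had 50 CPM or more and lay on 1 side of the same 332 reference cells both in members with 1 Flt3 UMI and in members with more. The 10 with the highest ratios were Lgals1, Ier3, Serpinb1a, Cd34, Gm2a, Smarcc2, Crip1, Plac8, Impa1 and Frat2. Their ratios ran from 1.54 to 2.14. The highest, Lgals1, for galectin 1, went from 2.14 to 1.30 and Crip1 from 1.58 to 1.31 without the Lyz2-rich cell. Gm2a, the GM2 ganglioside activator, stood at 150 CPM in members, 94.1 CPM in the reference and 174 CPM in ST-HSC of mouse 2 (1.60, 1.36 to 1.87). Smarcc2, of the SWI/SNF chromatin remodeller, stood at 72.6, 45.7 and 51.7 CPM (1.59, 1.27 to 2.00), above both. Among the 10 with the lowest ratios were Cdkn1c, Mycn, Iigp1, Mapk14, Cks2, Mllt3, Bex4, Mcrs1 and Apoe, from 0.56 to 0.70. For Mapk14, the stress kinase p38 alpha, members stood at 47.4 CPM, below the reference at 72.5 CPM and ST-HSC of mouse 2 at 68.3 CPM. These genes were picked as the extremes, so their ratios are a description, and for Smarcc2 and Mapk14 the members lay outside the range between reference and ST-HSC.

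The gates themselves were compared over the 4 libraries, to give each gene's difference on samples (edgeR's quasi-likelihood test, 2 mice a gate). The members were left out of LT-HSC and the reference cells were kept in. This fit did not use the pairing of libraries by mouse, and LT-HSC of mouse 1 held only 21 cells in it. With the mouse as replicate block 939 genes were called, 779 of them shared with this fit. Of 12565 genes, 414 were higher in ST-HSC (3.29%) and 483 higher in LT-HSC (3.84%). Slamf1 was lower in ST-HSC by 4.49 on the log2 scale (SE 0.33, adjusted p = 4e-38, edgeR). Cd34 was higher by 1.85 (adjusted p = 1e-15, edgeR) and Apoe lower, with a log2 difference of -2.40 (adjusted p = 2.5e-32, edgeR). The call count rests on LT-HSC of mouse 2, since 1 gene was called without it, and DESeq2 called 60 genes on the same sums.

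Mouse 1 could not supply a second sample of the comparison. Its single member held 6501 UMIs, 1 Flt3 UMI, 4 Apoe UMIs and none of Slamf1, Cd34, Cd52 or Cd48. Its ST-HSC score of 1.41% lay above 17 of the 21 other kept cells, and its LT-HSC score of 0.615% above 18 of them. Over all barcodes of that library, 126, the member included, held a Flt3 UMI, at a median of 338 UMIs. Against 252 barcodes of matched depth, genes at least 2-fold higher in ST-HSC of mouse 2 had a ratio of 1.11 (0.95 to 1.30) and genes higher in LT-HSC of mouse 2 one of 1.07 (0.93 to 1.24). Apoe held 45 and 88 UMIs there (ratio 1.00, 0.68 to 1.44). The intervals include a ratio of 1 for both sets, so no shift was detectable in these barcodes. For the LT-HSC genes the lower bound of 0.93 lies above the 0.80 found in mouse 2 with the genes chosen in mouse 1, and the 2 gene sets differ. Fewer RNA molecules per barcode and barcodes without a cell cannot be told apart in that library.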

How the data were processed

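The authors deposited raw counts of UMIs, made with Cell Ranger 3.1.0 on mm10 per the submitters' processing notes. The matrices name software version 3.0.2, per the file headers. For the step that picked the barcodes, the method was not given in the sources used here. Of 31053 gene identifiers, 30934 stand in GENCODE vM21. Counts were summed over cells, fitted with edgeR 4.0.16 (TMM, filterByExpr, Benjamini-Hochberg adjustment at 0.05), with DESeq2 1.42.0 as alternative. Mouse numbers name the animal, so libraries of 1 number are paired. Log2 ratios add 0.5 counts to each sum. Intervals are exact conditional (ratios) or Clopper-Pearson (shares) and cover counting error only. The limit given for a count of 0 is instead 3 counts of the total, which is somewhat below the upper Clopper-Pearson bound. No doublet caller was run. No cell type was assigned by clustering. ST-HSC held more cells with Flt3 than without, so the smaller group was matched to the larger. Named genes were the gate genes, up to 5 most abundant genes per list, the 10 highest and lowest ratios at 50 CPM or more, and the 8 most changed with Flt3 in ST-HSC in each direction. Others were named after their values were seen, and a few genes that these rules pick are not reported here. Members, lists and rules were chosen with earlier results of these data known. Python 3.11.15 and R 4.3.3 were used, and both fits and the ratios were tested on simulated data.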

Additional observations from a re-analysis of the deposited data

Results flagged for a closer look

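In LT-HSC of mouse 1, 127 Flt3 UMIs lay in barcodes outside the cell filter, which the comparison of members and reference does not use. This count is above the limit of 3 that a count of 0 allows. In these barcodes Flt3 stood at 9.44 CPM, against 14.6 CPM in the kept LT-HSC of mouse 2.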

How the results depend on the processing

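The member comparison rests on 1 library, so its medians (log2) have no test, and the medians of both gate sets kept their direction under every alternative run, while the summed ratio of LT-HSC genes over the barcodes of mouse 1 was 1.07 (0.93 to 1.24), above 1. The median of ST-HSC genes (0.18) was 0.23 with cells thinned to 5000 UMIs and 0.40 for members with 2 or more Flt3 UMIs. It was 0.75 for genes 4-fold apart (3 genes), 0.34 for genes called between the gates and 0.56 for genes apart in both mice. Over all LT-HSC barcodes of mouse 1 it was 0.30, from 23 genes chosen in mouse 2. The median of LT-HSC genes (-0.30) was -0.54 for genes 4-fold apart (10 genes) and -0.40 for genes apart in both mice. Over all barcodes of mouse 1 it was -0.033, from 62 genes chosen in mouse 2. The median of genes higher with Flt3 in ST-HSC (0.16) was 0.34 for 2 or more UMIs. In the barcodes of mouse 1 the median of all measured genes was 0.08, against 0.02 in the main setting. The summed ratio of ST-HSC genes there was 1.11 (0.95 to 1.30), an interval that includes 1. The genes called between the gates were chosen with the reference cells among the LT-HSC, so the values of that set are a description. The remaining alternatives, among them no depth matching, a level filter read in the other LT-HSC cells, 1 matched cell and leaving out the Lyz2-rich cell, kept each median within the 95% order-statistic interval of the main value over genes. The gate comparison (897 calls) gave 60 with DESeq2, 939 with the mouse as replicate block (779 shared) and 1 to 998 with a library left out, 1 being without LT-HSC of mouse 2. The comparison with Flt3 in ST-HSC (543 calls) gave 50 with DESeq2 and 19 with no replicate block. Leaving out a library there leaves no residual degrees of freedom and was not run. The cause of these changes was not tested. Log2 ratios that turned direction were Cd48 (-2.0005) and Cpa3 (-2.0005), Hbb-bs (0.68) and Iigp1 (0.071) for 2 or more UMIs, Cd48 (-0.00093) without the deepest 5% of cells and S100a8 (-4.36) without matching.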
